A study of Mus musculus with 2 samples.

Results

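Collagens and laminins are the structural proteins of the extracellular matrix, and integrins are the receptors by which cells hold on to it. Their genes were followed in mouse primary hepatocytes, the parenchymal cells of the liver isolated for culture. Members were the genes whose array name carries a collagen chain, laminin chain or integrin subunit symbol, leaving out the integrin-binding and integrin-like genes that share the prefix. The array held 112 such probes for 80 genes, of 39424 probes and 23607 genes with a symbol. These were 42 names of the collagen pattern, 11 laminins and 27 integrins. One of the 42, listed under its older symbol Col4a3bp, is Cert1, a ceramide transfer protein and no collagen, so it was counted apart. It had a signal of 361 in the G0s2 siRNA cells and 306 in the Control siRNA cells, a log2 difference of -0.56 ± 0.20.

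The study put G0s2 siRNA beside Control siRNA, 50 pmol each and carried by Lipofectamine, a lipid reagent, in hepatocytes seeded at 100000 cells per well of 24-well plates. G0s2 encodes an inhibitor of the lipase that starts triglyceride breakdown. RNA was taken 24 hours after transfection, and 0.5 ug of each was labelled with Cy3 and put on 1 Agilent array per group. Strain, sex and age of the animals are not given in the sources used here, and all cells shared the medium with 10% serum.

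A collagen is built from 3 chains wound into a helix, and its type decides whether it forms fibrils, the sheet of a basement membrane, or links between them. A laminin is a cross of 1 alpha, 1 beta and 1 gamma chain and lies in basement membranes with type IV collagen. An integrin pairs 1 alpha with 1 beta subunit, and the alpha subunit largely decides which matrix protein is bound. In healthy liver there is little basement membrane around hepatocytes, fibrillar collagen comes mainly from stellate cells and fibroblasts, and the integrins of hepatocytes are chiefly alpha1, alpha5 and alpha9 with beta1.

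Levels are the log2 of the scanner's processed signal relative to the 75th percentile of its array, which was 728 with G0s2 siRNA and 418 with Control siRNA. Signals themselves are therefore not comparable between the arrays. Differences of levels, G0s2 siRNA minus Control siRNA, are compared relative to that percentile. On the log2 scale, the percentiles differed by 0.80 between the arrays, while the spike-in control probes differed by a mean of -0.60. Which of these references is right was not tested. Each group has 1 array, so every difference compares 2 arrays, has no replicate check and no p-value. The error after ± comes from the signal errors that the scanner program reports for each spot, and it leaves out the variation between cultures. A gene was measured when its probe was well above background on at least 1 array. Where that held on 1 array only, the fold is a lower limit for this processing alone, given with the words at least. Other processing gave smaller limits for some members and no limit for others. The targeted gene, G0s2, had a signal of 103 in the G0s2 siRNA cells against 383 in the Control siRNA cells. Relative to the 75th percentile, that is 6.50-fold lower (difference -2.70 ± 0.21), and relative to the spike-in probes the fold is smaller.

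Of the 79 collagens, laminins and integrins, 47 were measured, and few of them differed by 2-fold or more between the arrays. Above background on 1 array only were 7 members with G0s2 siRNA and 1 with Control siRNA, beside 1041 and 259 of the 15420 genes measured. Among 22 measured collagens, 1 was at least 2-fold higher with G0s2 siRNA (Col8a2) and 3 were at least 2-fold lower (Col4a5, Col5a3 and Col16a1). Among 8 measured laminins, 1 was higher (Lamb3) and 1 lower (Lama2). Among 17 measured integrins, 0 were higher and 1 was lower (Itgb4). Over all 15420 measured genes, 4.81% passed 2-fold upward and 5.45% passed it downward. The 2 higher members are 4.26% of the 47 and the 5 lower members 10.6%, and with so few genes and 1 array per group these shares were not tested against those of all genes.

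Medians over the members measured on both arrays were -0.024 for 16 collagens, 0.36 for 16 integrins and 0.13 for 7 laminins, beside -0.058 for 14120 genes in all. The integrins were 11 above and 5 below a difference of 0, the collagens 8 and 8, and the laminins 4 and 3, where all genes had 6340 above and 7780 below. With bounds included, the medians were 0.14 for collagens, -0.042 for laminins and 0.50 for integrins, which became -0.26, -0.30 and -0.031 after normexp background correction, a model-based removal of background. The median of all measured genes was -0.043 without that correction and -0.12 with it. When arrays were centred on spike-in controls instead, the median of all genes itself became 1.35, and 17 collagens, 5 laminins and 15 integrins were at least 2-fold higher, beside 77.2% of all genes. All directions here are relative to the 75th percentile of each array.

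**Figure D1:**
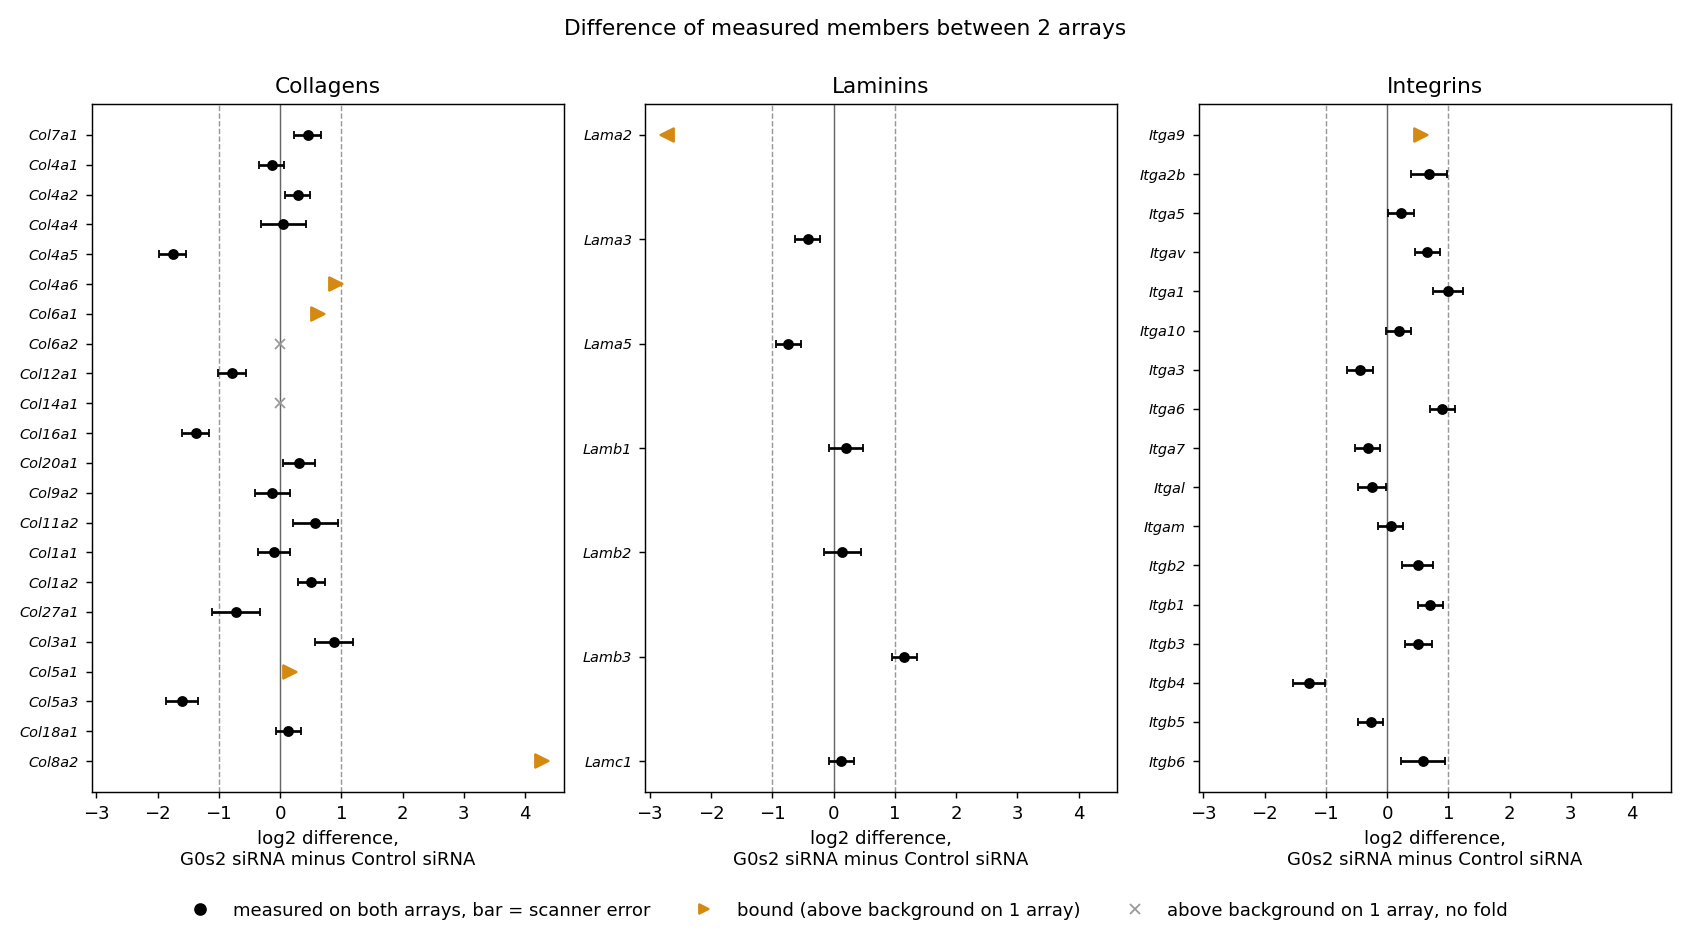
Log2 difference (G0s2 siRNA minus Control siRNA, 1 array each) of 46 measured members, by family. Points with bars were measured on both arrays and carry the scanner error, triangles are bounds, crosses mark members with no fold and their place at 0 carries no value, and dashed lines mark 2-fold. Col8a2 lies farthest to the right, and Lama2, Col4a5, Col5a3, Col16a1 and Itgb4 lie left of the 2-fold line (with spike-in centring, Col16a1 and Itgb4 lie above 0).

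Col8a2 had the largest difference of any member. It encodes a short-chain collagen that forms hexagonal networks, known from the cornea and from vessel walls. Its probe had a signal of 483 in the G0s2 siRNA cells against 3.13 in the Control siRNA cells, where it was not well above background. This makes it at least 19.4-fold higher (a bound of 4.28, but 2.21 after normexp correction). A second probe for the same gene, farther along the transcript, had signals of 4.13 with G0s2 siRNA and 4.35 with Control siRNA and was not above background on either array. The 2 probes are shown in full or in part because they disagree. The first is position 2234 of the transcript, chr4:125989478-125989537 of mm9 on the plus strand, and the second is position 4197, chr4:125991441-125991500, of which the first 30 bases are given.
Col8a2, position 2234: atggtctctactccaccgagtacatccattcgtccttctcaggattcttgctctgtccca
Col8a2, position 4197: acttaccacatatcacatatcaggttcagg
Which probe reads Col8a2 is not known, so the fold is that of 1 probe, and it rests on 1 spot on each array. Col8a1 and Col10a1, the other short-chain network collagens, were not above background on either array.

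The fibrillar collagens give tissue its tensile strength, and 7 of the 11 on the array were measured. Col1a1 and Col1a2, the chains of type I collagen, had signals of 52.9 and 167 in the G0s2 siRNA cells and 32.6 and 67.4 in the Control siRNA cells. Their differences were -0.10 ± 0.27 and 0.51 ± 0.22, so the chains of 1 trimer lay on either side of 0, the first within its scanner error. Col3a1, the type III chain of reticular fibres, had 64.0 with G0s2 siRNA against 19.95 with Control siRNA, a difference of 0.88 ± 0.31 that stays under 2-fold.

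Type V collagen starts fibrils and sets their width. Col5a3, a minor chain of it, had a signal of 36.0 with G0s2 siRNA against 62.9 with Control siRNA. That is 3.04-fold lower (-1.60 ± 0.26, but -0.20 with spike-in centring). Col5a1, its main chain, was above background with G0s2 siRNA only (27.8 with G0s2 siRNA against 10.5 with Control siRNA), at least 1.12-fold higher, and Col5a2 was above background on neither array. Of the remaining measured fibrillar collagens, Col11a2 and Col27a1, both known from cartilage, had differences of 0.58 ± 0.36 and -0.72 ± 0.39. Col2a1, Col11a1 and Col24a1 were not above background.

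Type IV collagen is the network of basement membranes. Its main chains, Col4a1 and Col4a2, had signals of 447 and 1167 in the G0s2 siRNA cells and 282 and 549 in the Control siRNA cells, with differences of -0.14 ± 0.20 and 0.29 ± 0.20. Col4a1 was spotted 10 times as 1 probe, and its 6 spots without an outlier flag ranged from 431 to 459 with G0s2 siRNA and from 272 to 288 with Control siRNA. Those 6 spots varied by an SD of up to 0.034 on the log2 scale. This is spread within an array only, and it leaves out the 4 flagged spots.

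The genes of type IV collagen lie in pairs that start back to back. The short stretch between the starts of Col4a1 and Col4a2 is printed because both genes begin in it, in opposite directions. It runs from chr8:11312805-11312826 of GRCm38.p6 in the RefSeq promoter table, is 22 bases long on the plus strand, and its capitals mark the first transcribed base of Col4a2 at the left end and of Col4a1 at the right.
Col4a2 and Col4a1: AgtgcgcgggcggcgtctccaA
Col4a1 and Col4a2, the pair with this shared start region, had small differences on either side of 0 (1.265 and 1.69 with spike-in centring). Col4a5 and Col4a6, neighbours on the X chromosome and likewise paired, also lay on either side of 0 and farther apart. For Col4a6 this is a bound only. Col4a5 is a chain of the kidney and epithelial network that is mutated in human Alport syndrome. It had 84.6 with G0s2 siRNA against 164 with Control siRNA, 3.37-fold lower (-1.75 ± 0.22, but -0.35 with spike-in centring). Its probe lies at chrX:138123547-138123606 of mm9, and its first 30 bases are given because it carries the lowest difference among members measured on both arrays.
Col4a5, position 6271: gacagtatttgcttagtcttctcccttcaa
Col4a6 was above background with G0s2 siRNA only (49.4 with G0s2 siRNA against 15.1 with Control siRNA), at least 1.88-fold higher. A second Col4a6 probe was not above background on either array. Col4a4 had 31.1 with G0s2 siRNA against 17.3 with Control siRNA (0.050 ± 0.37), and Col4a3 was not above background.

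Other collagens link fibrils or anchor membranes. Col16a1, a fibril-associated collagen, had a signal of 105 with G0s2 siRNA against 157 with Control siRNA, 2.59-fold lower (-1.38 ± 0.22, but 0.026 with spike-in centring). Its other 2 probes, one on each side along the transcript, were not above background on either array, and which of them reads the gene is not known. The probe that gave the difference and the next one lie 127 bases apart, and both hold the letters AATAAA, in capitals, the sequence known as the commonest signal for cutting and polyadenylating a transcript.
Col16a1, position 5017: gactctactaggAATAAAtggccaaagctt
Col16a1, position 5144: ttttttaacAATAAAgaaaactatttgtaa
The letters AATAAA, read on the probe's strand, were in 7 of 47 members' probes (14.9%) and in 12.6% of the 39429 probes of the array. Whether they mark a site in any of these probes was not tested. Of the remaining fibril-associated chains, Col12a1, Col20a1 and Col9a2 had differences of -0.79 ± 0.23, 0.31 ± 0.26 and -0.13 ± 0.28. Col14a1, at 23.4 with G0s2 siRNA against 10.74 with Control siRNA, was above background with G0s2 siRNA only and allowed no fold, and Col9a1, Col9a3, Col19a1 and Col22a1 were not measured.

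Col18a1, the precursor of endostatin and a collagen that hepatocytes themselves make, was well above background at both of its probes. It had 13942 in the G0s2 siRNA cells and 7321 in the Control siRNA cells, a difference of 0.13 ± 0.20, and its second probe gave -0.075. Col7a1, the anchoring fibril collagen of skin, had 137 with G0s2 siRNA against 57.7 with Control siRNA (0.45 ± 0.22). Of the type VI chains, which form beaded filaments, Col6a1 was at least 1.54-fold higher (38.3 with G0s2 siRNA against 9.62 with Control siRNA) and Col6a2 allowed no fold (23.0 with G0s2 siRNA against 11.0 with Control siRNA), both above background with G0s2 siRNA only. Col6a4 and Col6a6, Col15a1, Col28a1 and the 4 transmembrane collagens Col13a1, Col17a1, Col23a1 and Col25a1 were not above background. Col6a3 was not analysed here. Col6a5 and Col26a1, which the array lists under older names outside the pattern, were not above background either.

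**Figure D2:**
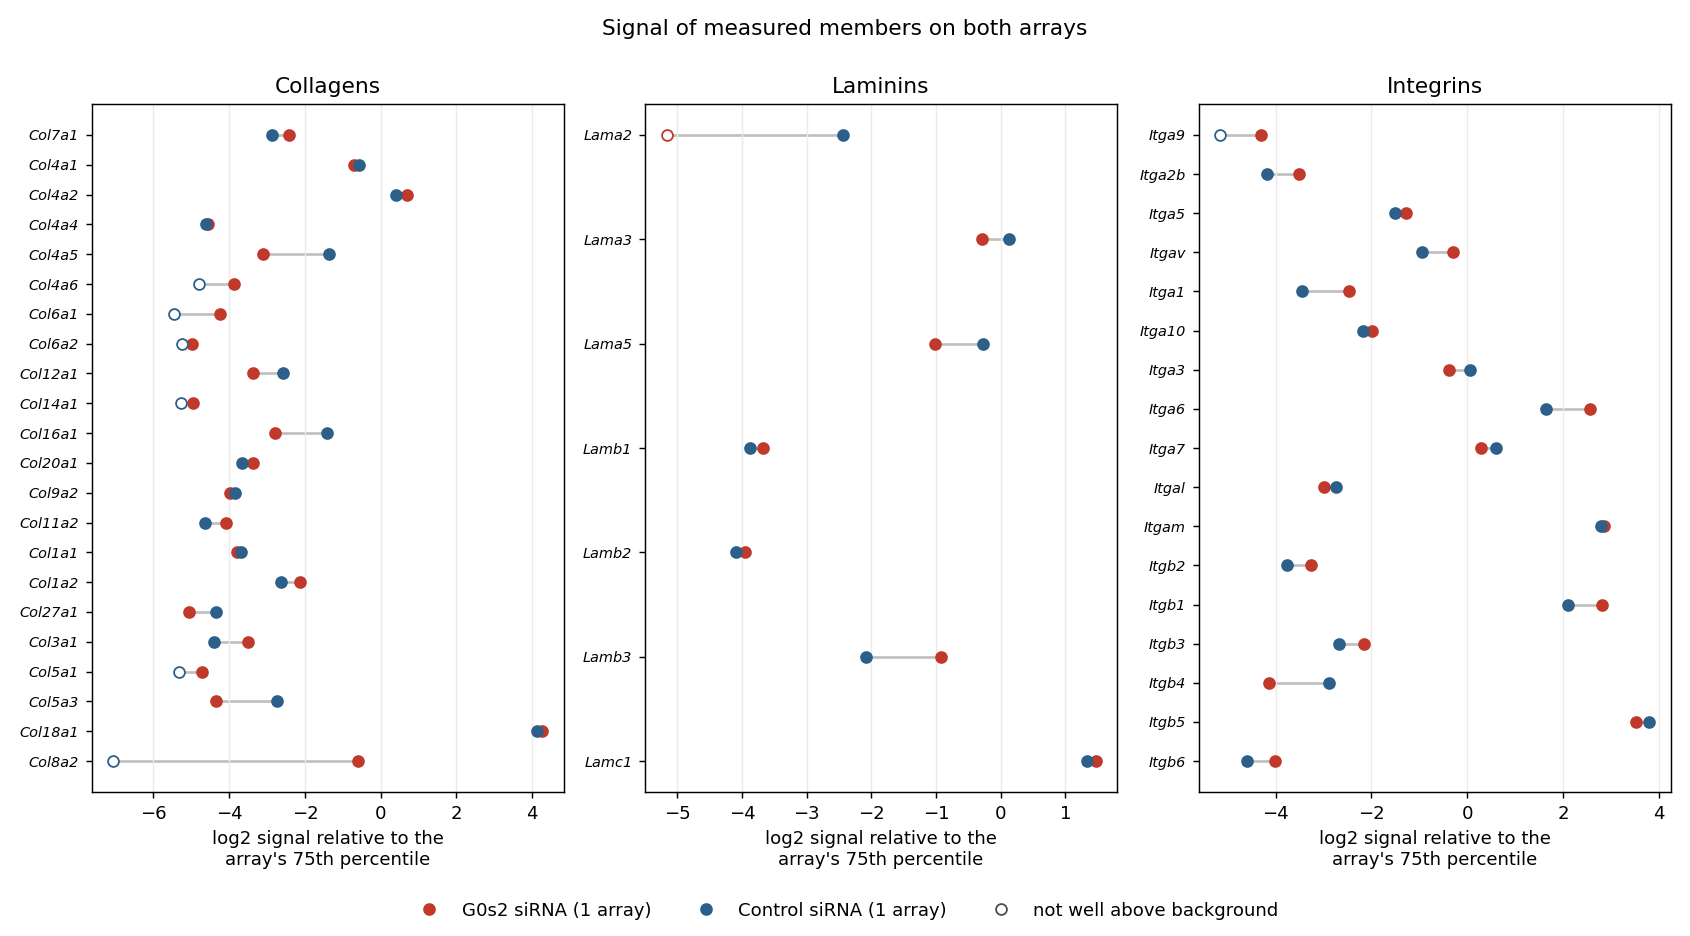
Level (log2 signal relative to the array's 75th percentile) of 46 measured members, with G0s2 siRNA in red and Control siRNA in blue, 1 array each. Open circles were not well above background, and probes of different genes have their own brightness, so only the 2 points of 1 row may be compared. The widest gaps are those of Col8a2 and Lama2, each with 1 open circle.

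Laminins showed 1 gene on either side of 2-fold. Lamb3, the beta chain of the laminin that anchors epithelia through hemidesmosomes, had a signal of 385 in the G0s2 siRNA cells against 99.1 in the Control siRNA cells, 2.23-fold higher (1.16 ± 0.21). Lama3, the alpha chain that joins Lamb3 in that laminin, did not follow it. It had 595 with G0s2 siRNA against 458 with Control siRNA (-0.42 ± 0.20), with -0.81 at its second probe. Lamb3 rests on 1 probe, position 3991, chr1:195170009-195170068 of mm9, shown because it gave the only laminin above 2-fold. The 30 bases around its AATAAA, in capitals, are given.
Lamb3, position 3991: aacacaaaacccAATAAAaatctttgaata

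Lama2, the alpha chain of muscle and nerve laminin, was the only member of 47 above background with Control siRNA alone, beside 259 of 15420 genes. It had a signal of 20.3 with G0s2 siRNA against 77.1 with Control siRNA, at least 6.62-fold lower. That is a bound of -2.73, but -1.38 after normexp correction and -1.325 with spike-in centring. Its second probe had 9.90 with G0s2 siRNA against 29.7 with Control siRNA, at least 2.85-fold lower, again above background with Control siRNA only. Both probes lie close together on the minus strand, at chr10:26701380-26701439 and chr10:26701254-26701313 of mm9, and their first 30 bases are shown because Lama2 is the only called gene that a second probe also measured.
Lama2, position 9364: cctgaccaccaacattaggttccgaggctg
Lama2, position 9490: cccgactacctAATAAAgatagttcaatcc
The capitals again mark AATAAA. Both probes went the same way and past 2-fold.

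The laminin chains of general basement membranes all stayed under 2-fold. Lamc1, the gamma chain of most laminins, had 2012 with G0s2 siRNA and 1061 with Control siRNA (0.13 ± 0.20). Lamb1, listed as Lamb1-1, and Lamb2 had 57.2 and 47.1 with G0s2 siRNA and 28.5 and 24.5 with Control siRNA, differences of 0.21 ± 0.28 and 0.14 ± 0.30. Lama5, the alpha chain of most adult epithelial basement membranes, had 360.05 with G0s2 siRNA against 345.66 with Control siRNA, a difference of -0.74 ± 0.20 that stays under 2-fold. Lama1, Lama4 and Lamc3 were not above background.

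Among integrins, the beta1 subunit that hepatocytes rely on, Itgb1, had a signal of 5095 in the G0s2 siRNA cells and 1797 in the Control siRNA cells, a difference of 0.71 ± 0.20, and a second probe gave 0.51. Neither reached 2-fold. The brighter probe is shown because its 60 bases span 5896 bases of mm9, at chr8:131250081-131255976 on the plus strand, so it lies across an exon junction.
Itgb1, position 2631: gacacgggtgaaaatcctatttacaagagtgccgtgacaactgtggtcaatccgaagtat
It is 1 of 4 such probes among the 47 of the measured members.

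Its alpha partners were uneven. Itga1, the collagen-binding subunit of hepatocytes, had 132 with G0s2 siRNA against 38.1 with Control siRNA, a difference of 0.99 ± 0.24 that is 1.99-fold and just under the rule, but its second probe, nearer the start of the transcript, gave 0.15 ± 0.34. Itga5, the fibronectin receptor subunit, had 301 with G0s2 siRNA against 148 with Control siRNA (0.23 ± 0.21), and Itga9, which binds tenascin and osteopontin, was above background with G0s2 siRNA only, at least 1.47-fold higher (36.7 with G0s2 siRNA against 11.7 with Control siRNA). Itgav, the subunit shared by vitronectin and fibronectin receptors, had 596 with G0s2 siRNA against 217 with Control siRNA (0.66 ± 0.20), with 0.38 at its second probe.

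The laminin receptors split by subunit. Itga6, which pairs with beta1 or beta4, had 4287 with G0s2 siRNA and 1319 with Control siRNA, 1.87-fold (0.90 ± 0.20). Itgb4, its partner in hemidesmosomes and the only integrin past the rule, had 41.0 with G0s2 siRNA against 57.0 with Control siRNA, 2.42-fold lower (-1.27 ± 0.26, but 0.13 with spike-in centring). Itgb4 rests on 1 probe at chr11:115869666-115869725 of mm9, whose 30 bases around AATAAA are given for that reason.
Itgb4, position 6100: tgttctgcacttAATAAAaggttttgctac
Itga3 and Itga7, the other laminin-binding alpha subunits, had differences of -0.44 ± 0.20 and -0.31 ± 0.20.

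Of the other integrins, Itgb5 had 8444 in the G0s2 siRNA cells and 5828 in the Control siRNA cells (-0.26 ± 0.20). Itgb3 and Itgb6, both partners of Itgav, had 0.51 ± 0.22 and 0.58 ± 0.36, and Itga2b, the platelet subunit, had 0.68 ± 0.30. Itga10, a collagen-binding subunit, had 0.19 ± 0.21. The leukocyte subunits Itgal, Itgam and Itgb2 had -0.25 ± 0.23, 0.063 ± 0.20 and 0.50 ± 0.26. Itgam, a subunit of the complement receptor of macrophages and neutrophils, gave 5282 with G0s2 siRNA against 2907 with Control siRNA at 1 probe, whereas its other 2 probes had 25.4 with G0s2 siRNA against 11.8 with Control siRNA and 24.6 with G0s2 siRNA against 13.5 with Control siRNA, and which of them reads the gene is not known. Itga2, Itga4, Itga8, Itga11, Itgad, Itgae, Itgax, Itgb2l, Itgb7 and Itgb8 were not above background.

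**Figure D3:**
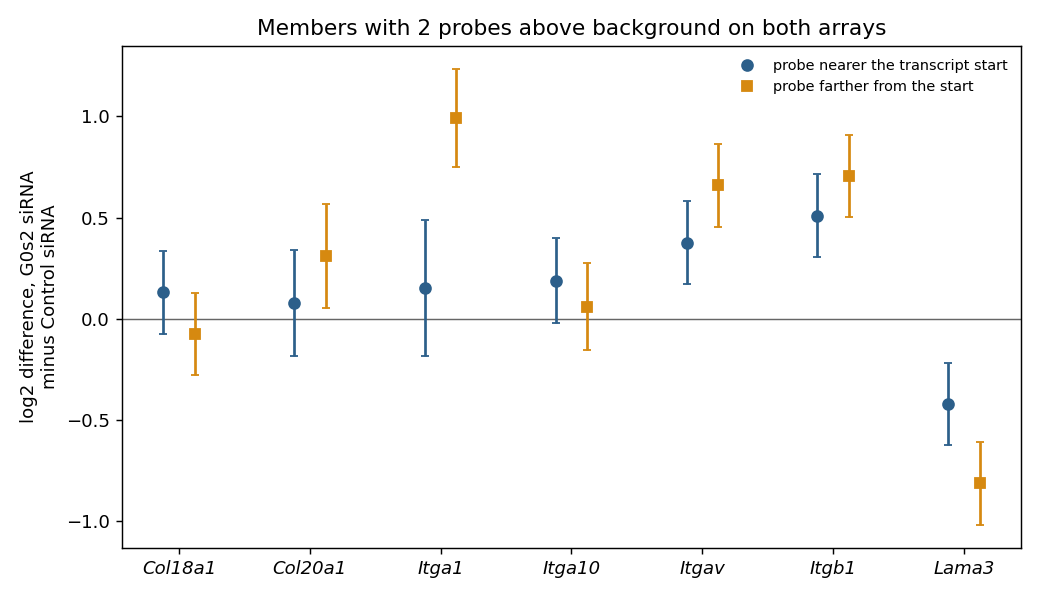
Log2 difference (G0s2 siRNA minus Control siRNA, 1 array each) at each probe of the 7 members with 2 probes above background on both arrays, with the scanner error as bars. Circles are the probes nearer the transcript start and squares those farther from it. The probes of Itga1 differ most (0.99 beside 0.15), those of Col18a1 lie on either side of 0, and the other 5 pairs share a sign.

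Genes that make, cross-link, bind or signal from these proteins were taken as lists, whose counts stand beside the 4.81% of all genes at least 2-fold higher and the 5.45% at least 2-fold lower. Of 19 measured collagen-processing genes, 2 were at least 2-fold higher and 0 lower. Crtap, part of the enzyme complex that 3-hydroxylates prolines of collagen chains, had 3606 with G0s2 siRNA against 688 with Control siRNA (1.59 ± 0.20). P3h1, the catalytic member of that complex, had 414 with G0s2 siRNA against 121 with Control siRNA (0.98 ± 0.21) and Ppib, a further member, had 28678 with G0s2 siRNA against 19631 with Control siRNA (-0.25 ± 0.20). Plod1, a lysyl hydroxylase of collagen, had 409.5 with G0s2 siRNA against 109.7 with Control siRNA, 2.15-fold higher, and P4hb, the disulphide isomerase subunit of prolyl 4-hydroxylase, had 19105 with G0s2 siRNA against 6405 with Control siRNA (0.78 ± 0.20). The median of the list was 0.089, beside -0.043 for all genes.

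Of 13 measured matrix partners, 1 was at least 2-fold higher and 2 were lower, beside 4.81% and 5.45% of all genes, and the median was 0.11 with 7 above and 6 below 0. Dag1, which encodes dystroglycan, a laminin receptor outside the integrin family, had 2078 with G0s2 siRNA against 240 with Control siRNA, 4.98-fold higher (2.31 ± 0.20). Thbs1, the matrix protein thrombospondin, and Cd44, the hyaluronan receptor, were 2.68-fold and 2.24-fold lower. Fn1, which encodes fibronectin, had 59652 with G0s2 siRNA against 31222 with Control siRNA (0.14 ± 0.20). Agrn and Nid1, which tie laminin to cells and to type IV collagen, had -0.24 ± 0.20 and -0.43 ± 0.20, and Vtn, which encodes vitronectin, had -0.49 ± 0.20.

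Of 7 measured matrix proteases and inhibitors, 0 were at least 2-fold higher and 1 was lower, beside 4.81% and 5.45% of all genes, and the median was -0.50 with 5 of 7 below 0. The lower gene was Timp2, a metalloproteinase inhibitor, at 121 with G0s2 siRNA against 143 with Control siRNA (-1.04 ± 0.21). Of 17 measured integrin adaptors, the proteins that couple integrin tails to actin and kinases, 1 was at least 2-fold higher and 3 were lower, beside 4.81% and 5.45% of all genes, and the median was -0.27 with 11 of 17 below 0. Ilk, a pseudokinase that binds beta integrin tails, had 13035 with G0s2 siRNA against 3134 with Control siRNA (1.26 ± 0.20). Actn4, an actin cross-linker, Src, a kinase of adhesion sites, and Fermt2, an activator of beta tails, were 2.75-fold, 2.41-fold and 2.07-fold lower. Tln1 and Flna, which link integrins to actin, had -0.79 ± 0.20 and 0.073 ± 0.20.

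Since collagens, laminins and integrins are made by several liver cell types, marker genes of each were read on the same arrays. In such a culture, fewer cells of a type and less RNA per cell cannot be told apart. Hepatocyte markers were bright on both arrays, 8 of 9 measured ones above 0 in difference with a median of 0.44, and their summed signal, relative to the 75th percentile, was 963 with G0s2 siRNA and 763 with Control siRNA. Alb, which encodes albumin, had 0.30 ± 0.20, while Cps1, the first enzyme of the urea cycle, had 6160 with G0s2 siRNA against 455 with Control siRNA (2.96 ± 0.20).

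Of 14 stellate cell and fibroblast markers, 6 were measured, and 4 of the 5 measured on both arrays had differences above 0, with a median of 0.51. The summed relative signal of the whole list was 25.4 with G0s2 siRNA and 28.6 with Control siRNA, most of it from Vim, which had 15852 with G0s2 siRNA and 11080 with Control siRNA (-0.28 ± 0.20). Dcn, which encodes decorin, had 1400 with G0s2 siRNA against 371 with Control siRNA (1.12 ± 0.20). Cygb, a globin of stellate cells, had 156 with G0s2 siRNA against 55.0 with Control siRNA (0.70 ± 0.22). Tagln and Acta2, actin-binding protein and actin of contractile cells, had differences of 0.51 ± 0.20 and 0.29 ± 0.25, and Thy1 was above background with G0s2 siRNA only and allowed no fold. Des, Pdgfra, Pdgfrb, Lrat, Reln, Lum, Gfap and Hhip were not above background.

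Of 12 endothelial markers, 10 were measured, and 5 of the 9 measured on both arrays had differences above 0, with a median of 0.46. Cdh5, the cadherin of endothelial junctions, had 98.8 with G0s2 siRNA against 28.1 with Control siRNA (1.01 ± 0.26). Flt1, Lyve1, Pecam1 and Stab1 had 0.94 ± 0.21, 0.89 ± 0.33, 0.77 ± 0.29 and 0.46 ± 0.21. Flt4, Stab2 and Eng went the other way, with -0.47, -0.18 and -0.046. The summed relative signal was 7.96 for G0s2 siRNA and 10.2 for Control siRNA, most of it from the growth factor receptor gene Kdr, which had 4476 with G0s2 siRNA and 3668 with Control siRNA (-0.51 ± 0.20). Of 10 macrophage markers, 9 were measured, 6 of them with differences above 0 and a median of 0.35. Their list summed to 13.5 for G0s2 siRNA and 14.4 for Control siRNA, with Mpeg1 2.27-fold lower and Cd14 2.14-fold higher. Of 12 lymphocyte, neutrophil and platelet markers, 2 were measured (Cd3e, 2.01-fold lower, and Cd79a), and the sums were 1.04 for G0s2 siRNA and 2.02 for Control siRNA. Ptprc, carried by all leukocytes, was not above background.

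Cholangiocyte markers, of the bile duct epithelium, numbered 8, of which 6 were measured. The 5 measured on both arrays all had differences under 0, relative to the 75th percentile, with a median of -0.94. The summed relative signal of the whole list was 4.39 with G0s2 siRNA against 7.75 with Control siRNA. Krt19, a bile duct keratin, had 934 with G0s2 siRNA against 1174 with Control siRNA (-1.13 ± 0.20) and Cldn7, a tight junction protein, had 216 with G0s2 siRNA against 304 with Control siRNA (-1.29 ± 0.21). Prom1 went the other way, at least 2.31-fold higher, and Epcam and Cftr were not above background. On the same scale, Itgb4, Col4a5, Lama2, Col5a3 and Col16a1 were lower with G0s2 siRNA as those 5 markers were. Lamb3 and Col8a2 were higher. Spike-in centring adds the same amount to every difference measured on both arrays, and the median of all genes became 1.35. It moved Itgb4 from -1.27 to 0.13 and Col4a5 to -0.35. Markers less far below 0 than Itgb4, Krt19 among them, thus also lie above 0 with that centring, while Col4a5 does not. The part of any cell type in these differences was not tested.

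The 7 members past 2-fold kept their sign and stayed past the rule under quantile normalization, median centring and the mean over probes. They did so too, where they had a value, with the authors' table, no filter and outlier spots kept. Most of these settings could hardly move a call. Keeping outlier spots changed none of the 7 values, the mean over probes only Lama2 (-2.20) and no filter only Col8a2 (6.47). Median centring gave Col4a5 -1.755 beside -1.752. The authors' table closely repeats quantile normalization (-1.80 for Col4a5 in both). After normexp correction, 4 of 7 stayed past it, Col8a2 at 2.21, Lama2 at -1.38, Col4a5 at -1.26 and Col16a1 at -1.09, with Col5a3 at -0.95, Itgb4 at -0.86 and Lamb3 at 0.86. Spike-in centring left 3 past it, Col8a2, Lamb3 and Lama2, with Col4a5 at -0.35 and Col5a3 at -0.20. Of the members under the rule, normexp put Itga1 at 0.24, Col3a1 at 0.081 and Col1a2 at 0.057. It allowed no fold for Col5a1, Col6a1 and Itga9, so their lower limits above hold for the main processing only.

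**Figure D4:**
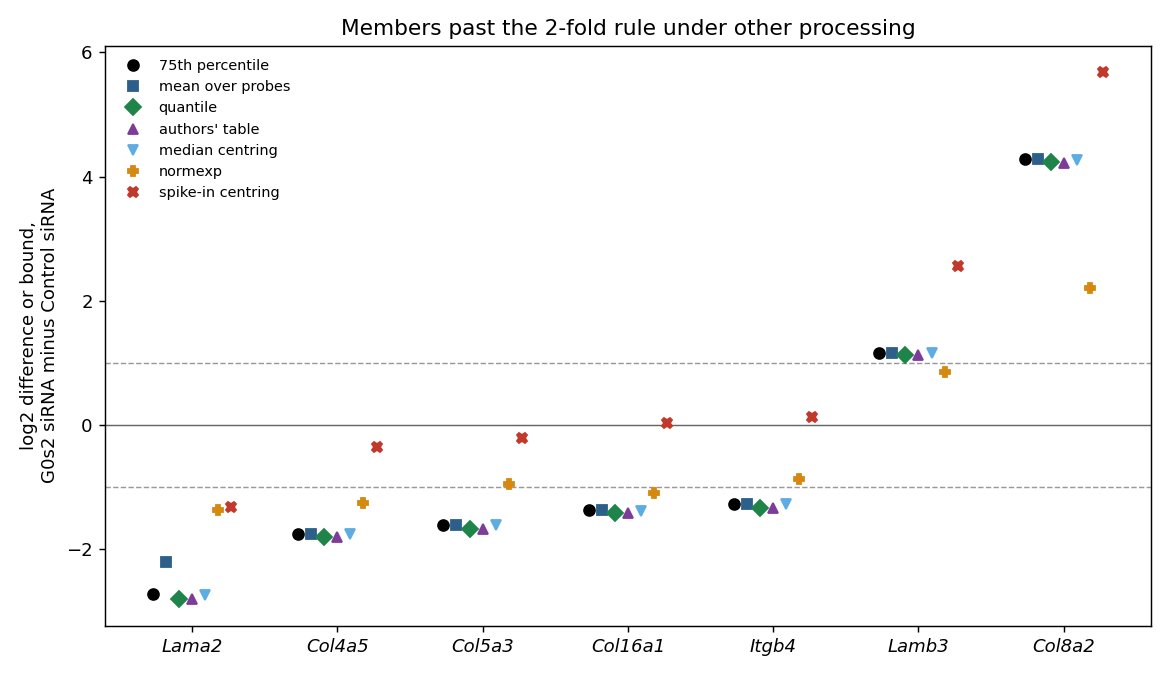
Log2 difference or bound (G0s2 siRNA minus Control siRNA, 1 array each) of the 7 members past 2-fold under 7 ways of processing, with dashed lines at 2-fold. The authors' table and quantile normalization gave nearly the same values and are no separate checks. Col8a2 and Lama2 stay past the rule in each of these, while Col16a1 (0.026) and Itgb4 (0.13) lie above 0 with spike-in centring.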

How the data were processed

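Cy3-labelled RNA of 2 cell samples, 1 per siRNA group by its label, was read on 1-colour arrays. The deposited scanner tables hold linear spot intensity, background-corrected by Agilent Feature Extraction 10.7.1.1 per the file headers. The authors' series table entered as an alternative, though how it was made is not stated in the labels or headers. Its ranked values were identical between the arrays at 97.8% of ranks, with a median of 33.1 on each, as quantile normalization leaves them. It is therefore no separate check from that setting.

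Processed signals were log2-transformed and centred on the 75th percentile of each array. Control and outlier spots were left out and spots of a probe averaged. Each gene was read from the brightest of its probes well above background on either array. A dim value was raised, where lower, to the lowest signal among probes well above background (18.1 with G0s2 siRNA and 14.3 with Control siRNA). The share of probes above background was 58.2% with G0s2 siRNA and 54.1% with Control siRNA, with 0 saturated spots. Precision is limited by the number of arrays. Symbols came through a RefSeq table of GRCm38.p6, and promoter sequence came from RefSeq on that build. Probe coordinates are mm9 per the scanner tables.

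With 1 array per group no test was made, and calls are log2 differences of at least 1. The counting was tested on simulated data. Members and lists were chosen with earlier results of these data known. Named by rule were G0s2, members past 2-fold, the 5 highest levels per family, common trimer chains, hepatocyte integrins, members whose probes disagree past the rule, and up to 4 largest differences and 4 highest levels per list. The other members are named to account for each, except 1 that enters the counts and medians but is not reported here. Python 3.11.15 with numpy 2.4.6, pandas 2.3.3 and matplotlib 3.10.9, and R 4.3.3 with limma 3.58.1 (normexp, offset 50, and quantile normalization) were used.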

Additional observations from a re-analysis of the deposited data

How the results depend on the processing

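No paired analysis was possible because each group has 1 array, and no replicate could be left out. Normexp gave 0 higher laminins and 0 lower integrins, with medians of -0.26 for collagens, -0.30 for laminins and -0.031 for integrins. Spike-in centring gave 17 higher and 0 lower collagens, 5 higher laminins and 15 higher and 0 lower integrins, with medians of 1.49, 1.36 and 1.90. It turned Col16a1 to 0.026 and Itgb4 to 0.13. Only genes above background on both arrays gave 0 higher collagens and 0 lower laminins. No filter on dim probes gave 2 higher and 5 lower collagens, and medians of -0.13 for collagens and 0.056 for integrins. A 1.5-fold rule gave 4 higher and 5 lower collagens, 2 lower laminins and 5 higher integrins, beside 12.4% higher and 14.6% lower genes in all. A 3-fold rule gave 0 higher laminins and 0 lower integrins. The remaining family counts under these and the other settings stayed within 1.5 times. What moved each value was not tested. Of the 32 members not measured, any difference was not detectable at these signals. Every difference rests on 1 culture, 1 extract and 1 array per group, and the scanner error does not cover variation between cultures.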
